A study of Mus musculus with 23 samples.

Results

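The clustered protocadherins are cell-surface adhesion proteins of the cadherin family, encoded in 3 neighbouring gene sub-clusters, alpha, beta and gamma, on mouse chromosome 18. They were taken as the protein-coding genes of the GENCODE M21 annotation in this cluster whose symbols start with Pcdha, Pcdhb or Pcdhg followed by a digit or by a, b or c. This gave 57 members among 21938 protein-coding genes, of which 14 were alpha, 22 beta and 21 gamma genes. All 57 are transcribed in the same direction.

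Each alpha and gamma gene has its own promoter and its own large variable exon, which encodes the extracellular, membrane-spanning and first cytoplasmic part of the protein and is spliced to short constant exons shared by the sub-cluster. The beta genes have no shared constant exons, and their whole coding sequence lies in a single exon. A neuron switches on only some of these promoters, apparently at random, with the help of the DNA-binding protein CTCF and the cohesin ring. The resulting set of proteins gives the cell a surface identity by which its own branches recognise and avoid each other. The C-type genes at the ends of the alpha and gamma sub-clusters are less subject to this choice and are used more widely by neurons.

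ChIP-seq of 2 histone marks was made in cells of the cerebral cortex of mouse embryos of the Tg(Ebf2-EGFP)FB58Gsat strain, in which a transgene with regulatory sequence of Ebf2 drives EGFP. H3K27ac is an acetylation of histone H3 found at active promoters and enhancers, and H3K27me3 is the trimethylation of the same lysine that Polycomb complexes place at silent genes. Stages are embryonic days. Ebf2-EGFP+ cells were sorted at 3 of them, E11.5, E13.5 and E15.5, whereas Ebf2-EGFP- cells came from the first stage only. According to the study, the positive cells were mainly preplate neurons at E11.5 and mostly Cajal-Retzius cells at E15.5, while the negative cells were mostly neural progenitors. All groups carried the transgene, so the cell groups differed in fluorescence and stage and not in genotype, and whether embryos were pooled is not given in the sources used here.

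The 23 samples formed 12 groups by their labels, with 15 ChIP libraries in 8 groups and 8 input libraries in 4 groups. Every group held 2 libraries but for the H3K27ac group of Ebf2-EGFP- cells, with 1 library. Each of the 8 ChIP groups had a single deposited peak list, with positions but no heights, so no spread between replicates and no test between lists could be had, and the sequencing depth is unknown. The lists held between 1386 and 102881 peaks, and counts in the short lists are low everywhere in the genome. For that reason counts of marked members are set beside the share of a wider set of genes in the same list. Marker genes were read within 1 kb of their transcription start site (TSS). Of those of Cajal-Retzius cells, Reln, Trp73 and Lhx5 had H3K27ac in the E11.5 and E15.5 Ebf2-EGFP+ lists. At E13.5 Trp73 and Lhx5 had it and Reln did not, but Reln had an H3K27ac peak in the Ebf2-EGFP- list. Trp73 and Lhx5 also had H3K27me3 in Ebf2-EGFP- cells, and Ebf2 itself had no peak in any list. Of the progenitor markers, Sox2, Hes5 and Vim had H3K27ac in Ebf2-EGFP+ cells of E11.5, Sox2 and Vim at E13.5, and Hes5 and Vim at E15.5. In Ebf2-EGFP- cells 0 of 4 had H3K27ac, in the shortest list of the mark, while Sox2 and Vim had H3K27me3. Pax6 had no peak in any list. Of the neuron markers, Tubb3 had H3K27ac in all 3 Ebf2-EGFP+ lists, and Dcx had no peak in any list. Of 3 interneuron markers, Dlx2 had H3K27ac in all 3 Ebf2-EGFP+ lists, and Dlx1 and Gad1 had no peak in any list. Of 3 microglial markers, C1qa had H3K27ac at E13.5 alone, and Cx3cr1 and Aif1 had no peak. Of 2 endothelial markers, Cldn5 had H3K27ac at E13.5 and H3K27me3 in Ebf2-EGFP- cells, and Pecam1 had no peak. The part of such cells in the results below was not tested.

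Peaks were counted along the whole cluster first. Its span from Pcdha1 to the end of the gamma constant exons was 911.7 kb (chr18:36930184-37841873, mm10). The alpha sub-cluster (chr18:36930184-37187661) covered 257.5 kb, the beta sub-cluster (chr18:37264938-37524479) 259.5 kb and the gamma sub-cluster (chr18:37661793-37841873) 180.1 kb. For H3K27ac, 1 peak lay in the sub-clusters in Ebf2-EGFP- cells, and 34, 57 and 14 in Ebf2-EGFP+ cells by stage, from E11.5 to E15.5. For H3K27me3, 36 peaks lay there in Ebf2-EGFP- cells, and 5, 10 and 1 in Ebf2-EGFP+ cells in the same order. H3K27me3 peaks were thus most numerous in the progenitor-rich negative cells, and H3K27ac peaks in the positive cells of E13.5, which is also the order of the whole lists.

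Over the whole span, the cluster held more peaks per 100 kb than the genome did in all 8 lists. The H3K27ac density was 3.95 peaks per 100 kb against 1.36 in the genome at E11.5 in Ebf2-EGFP+ cells, 7.13 against 3.77 at E13.5 and 1.97 against 0.946 at E15.5. The H3K27me3 density was 4.39 (genome 1.8) in Ebf2-EGFP- cells, 0.548 (genome 0.234) in the positive cells of E11.5 and 1.21 (genome 0.247) in those of E13.5. The remaining 2 lists held 0.11 peaks per 100 kb each, which is 1 peak of the whole cluster. The 50 kb flanks were not always lower than the cluster. H3K27ac of E11.5 Ebf2-EGFP+ cells gave 4.0 peaks per 100 kb in each flank, from 2 peaks. At E13.5 it gave 0.0 upstream and 6.0 downstream, and at E15.5 0.0 in both. H3K27me3 gave 0.0 upstream and 4.0 downstream in Ebf2-EGFP- cells. It gave 2.0 in both flanks in E11.5 Ebf2-EGFP+ cells and 0.0 in both at E13.5.

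The sub-clusters took different shares of these peaks. In the alpha sub-cluster, H3K27ac of Ebf2-EGFP+ cells gave 12, 22 and 4 peaks by stage. In the beta sub-cluster the counts were 14, 15 and 2, and in the gamma sub-cluster 8, 20 and 8. The gamma genes thus held 8 of the 14 H3K27ac peaks at E15.5, while the beta genes held 2. Of the gamma peaks, 3 lay at Pcdhgc3 and 1 at Pcdhgc4. The whole H3K27ac list was also shorter at E15.5, with 25793 peaks against 102881 at E13.5. H3K27me3 of Ebf2-EGFP- cells gave 14 alpha, 10 beta and 12 gamma peaks. The sub-clusters differ in length, and per 100 kb these were 5.44, 3.85 and 6.66 peaks. H3K27ac of Ebf2-EGFP+ cells gave 4.66, 5.39 and 4.44 per 100 kb at E11.5 in the same order. At E13.5 the values were 8.54, 5.78 and 11.1. At E15.5 they were 1.55, 0.771 and 4.44, against 0.946 in the genome. At E13.5, H3K27me3 of Ebf2-EGFP+ cells gave 6 alpha peaks and 2 in each of the other sub-clusters.

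**Figure D1:**
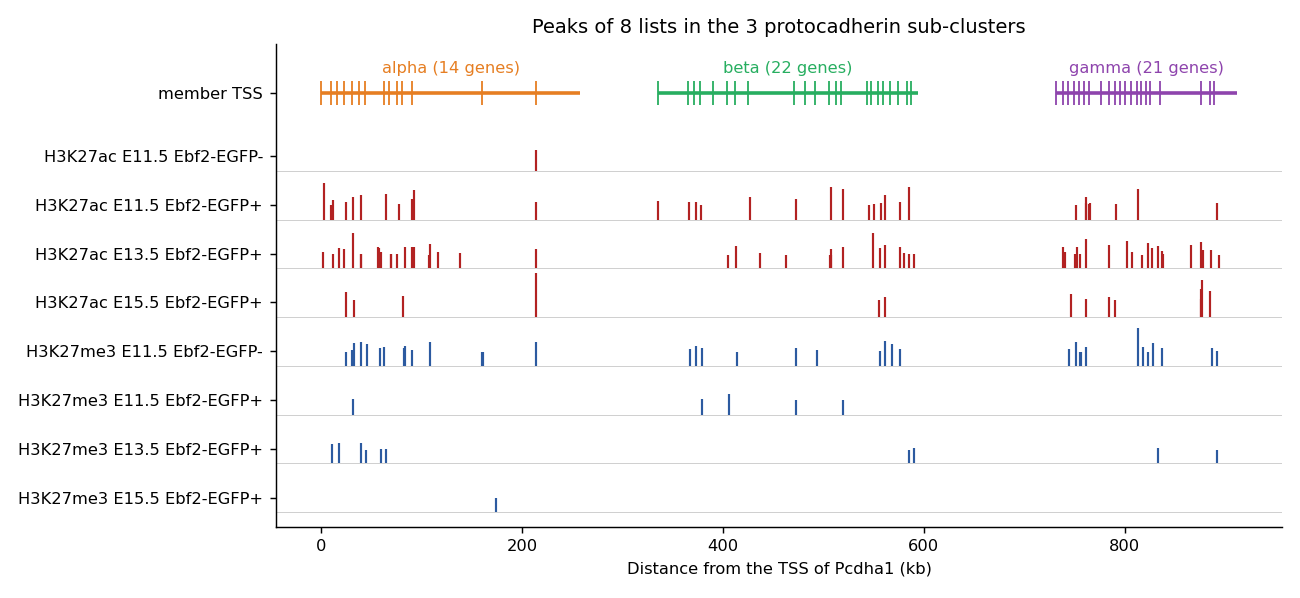
Peaks of the 8 lists in the 3 sub-clusters, by distance from the TSS of Pcdha1 (kb). Each bar is a peak, its height proportional to the peak's width (the tallest is 717 bp, at Pcdhac2 in the E15.5 H3K27ac list), with H3K27ac in red and H3K27me3 in blue, and the ticks at the top are the member TSS. The E13.5 H3K27ac list has the most bars (57), and 3 lists have 5 or fewer.

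The promoters of the cluster were marked seldom. H3K27ac lay within 1 kb of the TSS of 7 members in Ebf2-EGFP+ cells at E11.5, of 13 members at E13.5 and 7 members at E15.5, and of 1 member, Pcdhac2, in Ebf2-EGFP- cells. These were 12.3%, 22.8%, 12.3% and 1.75% of the members, against 40.6%, 44.5%, 46.0% and 3.63% of all protein-coding genes in the same lists. H3K27me3 lay within 1 kb of 7 member TSS in Ebf2-EGFP- cells, which was 12.3% against 36.2% of all genes. In Ebf2-EGFP+ cells it lay at 0 members at E11.5 (1.89% of all genes), at 1 at E13.5 (1.75% of members, 5.34% of all genes) and at 0 at E15.5 (0.451% of all genes). The members' share was below that of all genes in all 8 lists. Over the 8 lists together, 32 of the 57 members had no peak within 1 kb, 18 had one in a single list, 5 in 2 lists, 1 in 3 lists and 1 in 5 lists.

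By sub-cluster, the 7 members with H3K27ac at E11.5 were 3 alpha, 2 beta and 2 gamma genes. At E13.5 the 13 members were 4 alpha, 1 beta and 8 gamma genes, and at E15.5 the 7 members were 2 alpha, 1 beta and 4 gamma genes. The 7 members with H3K27me3 in Ebf2-EGFP- cells were 5 alpha and 2 gamma genes. No beta promoter carried H3K27me3 within 1 kb in any list.

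The C-type genes, 5 of the 57 members, made up 3 of the 13 members with promoter H3K27ac at E13.5 and 3 of the 7 at E15.5. At E13.5 one of them, Pcdhgc4, was counted by a peak with its centre outside the 1 kb window. The shares of all genes in these lists were 44.5% and 46.0%. In the E11.5 lists, H3K27ac marked 1 of the 5 in positive cells (40.6% of all genes) and 1 in negative cells (3.63%). H3K27me3 of Ebf2-EGFP- cells marked 2 of the 5 (36.2% of all genes). A set of 5 genes is too small to be read against these shares. Pcdhac2, the last alpha gene, had a peak within 1 kb of its TSS in 5 lists, more than any other member. The widest H3K27ac peak there was 267 bp in Ebf2-EGFP- cells. In Ebf2-EGFP+ cells it was 194 bp at E11.5, 232 bp at E13.5 and 717 bp at E15.5. H3K27me3 covered 323 bp at the same place in Ebf2-EGFP- cells and was not called there in any Ebf2-EGFP+ list. The 717 bp peak was the widest at any member TSS, and that list also had the widest peaks in general, with a median of 283 bp against 183 bp to 212 bp in the other H3K27ac lists.

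The C-type genes of the gamma sub-cluster differed among themselves. Pcdhgc3 had no peak at E11.5 in either mark, then H3K27ac of 382 bp at E13.5 and 584 bp at E15.5. Pcdhgc4 likewise had H3K27ac within 1 kb of its TSS only from E13.5 on, of 218 bp at E13.5 and 374 bp at E15.5. The E13.5 peak had its centre 1045 bp after the TSS and only reached into the window. In Ebf2-EGFP- cells Pcdhgc4 had an H3K27me3 peak of 213 bp farther inside its variable exon. Pcdhgc5 had no peak within 1 kb of its TSS in any list, but its variable exon held H3K27ac of 176 bp at E11.5 and 126 bp at E13.5. The same exon held an H3K27me3 peak of 148 bp in Ebf2-EGFP- cells and one of 116 bp in the E13.5 list. Pcdhac1, the remaining C-type gene, had 2 H3K27me3 peaks of 130 bp each in Ebf2-EGFP- cells, one near its TSS and one farther inside its exon, and no H3K27ac in any list.

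Among the other members, the first gene of each sub-cluster differed. Pcdha1 had no peak within 1 kb of its TSS, but its variable exon held H3K27ac of 577 bp at E11.5 and 179 bp at E13.5 in Ebf2-EGFP+ cells. Pcdhb1 had H3K27ac of 226 bp at E11.5 alone. Pcdhga1 had no peak of either mark at its TSS or in its exon in any list. Pcdhb22, the last beta gene, had peaks only inside its exon and only at E13.5, with H3K27ac of 144 bp and H3K27me3 of 167 bp.

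Pcdha12 was the only member with a promoter peak in exactly 3 lists, with H3K27ac of 251 bp at E11.5 and 283 bp at E13.5 in Ebf2-EGFP+ cells and H3K27me3 of 164 bp in Ebf2-EGFP- cells. Pcdhga4 carried H3K27ac of 145 bp at E13.5 and H3K27me3 of 132 bp in Ebf2-EGFP- cells. Pcdhga7 carried H3K27ac of 321 bp at E13.5 and 247 bp at E15.5, and Pcdhgb4 carried it at E11.5 with 152 bp and at E15.5 with 185 bp. Pcdha7 had the only H3K27me3 peak at a member TSS in an Ebf2-EGFP+ list, 127 bp at E13.5, and an H3K27me3 peak of 285 bp inside its exon in Ebf2-EGFP- cells. The median peak width of these lists was 146 bp to 283 bp, and a call or its absence at such widths rests on a threshold whose distance from the signal cannot be seen in lists without heights.

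By stage, H3K27ac within 1 kb of the TSS was held by few members at more than 1 stage of Ebf2-EGFP+ cells. Pcdhac2 alone had it at all 3 stages, Pcdha12 at E11.5 and E13.5, Pcdhgb4 at E11.5 and E15.5, and Pcdhga7, Pcdhgc3 and Pcdhgc4 at E13.5 and E15.5. The members with H3K27ac at a single stage numbered 4 for E11.5, 8 for E13.5 and 2 for E15.5, and 37 members had it at no stage. Thus 2 of the 7 members marked at E11.5 (28.6%) were also marked at E13.5, against 69.3% of all genes marked at E11.5. Of the 13 members marked at E13.5, 4 (30.8%) were also marked at E15.5, against 68.9% of all genes. Between the marks, 2 of the 7 members with H3K27me3 in Ebf2-EGFP- cells (28.6%) had H3K27ac in Ebf2-EGFP+ cells of that stage. Of all genes with H3K27me3 there, 69.5% did. Sets of 7 and 13 members are too small to be read against these shares. Only 12.3%, 22.8% and 12.3% of all members had promoter H3K27ac at the 3 stages, so a lower shared part than in all genes is no separate result.

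Most peaks of the cluster lay away from the promoters, inside the large exons. The main exon of a member is here the exon that holds its longest coding segment, which is the variable exon of alpha and gamma genes and the single coding exon of beta genes. This measure was chosen after the positions of the peaks had been seen. The longest coding segments were of nearly the same length in all members, with a median of 2397 bp (2316 to 2562 bp). The sequence within 1 kb of a TSS made up 16.3% of the sub-clusters and the rest of the main exons 19.0%. Of the 106 H3K27ac peaks, 25.5% lay within 1 kb of a TSS and 62.3% in the rest of a main exon. Of the 52 H3K27me3 peaks, 15.4% lay within 1 kb of a TSS and 75.0% in the rest of a main exon. The shared constant exons of the alpha and gamma genes held 0 peaks of either mark and made up 0.703% of the sequence.

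Within the exons, both marks sat at the same distance from the TSS. Of the H3K27ac peaks, 55 of 106 (51.9%) had their centre between 1.5 kb and 2.5 kb after the TSS, and of the H3K27me3 peaks 35 of 52 (67.3%). The median distance, over peaks less than 4 kb after the TSS, was 1911 bp for H3K27ac of Ebf2-EGFP+ cells at E11.5, 1900 bp at E13.5 and 888.5 bp at E15.5. For H3K27me3 it was 1927 bp in Ebf2-EGFP- cells and 1979 bp and 1950 bp in Ebf2-EGFP+ cells at E11.5 and E13.5. A smaller group of peaks lay within the first 500 bp after the TSS, 17 of H3K27ac and 7 of H3K27me3. Only 2 peaks, both of H3K27ac, had their centre in the 1 kb before a TSS. At E15.5 the proportions turned, with 5 of 14 H3K27ac peaks (35.7%) at 1.5 kb to 2.5 kb against 24 of 34 (70.6%) at E11.5.

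**Figure D2:**
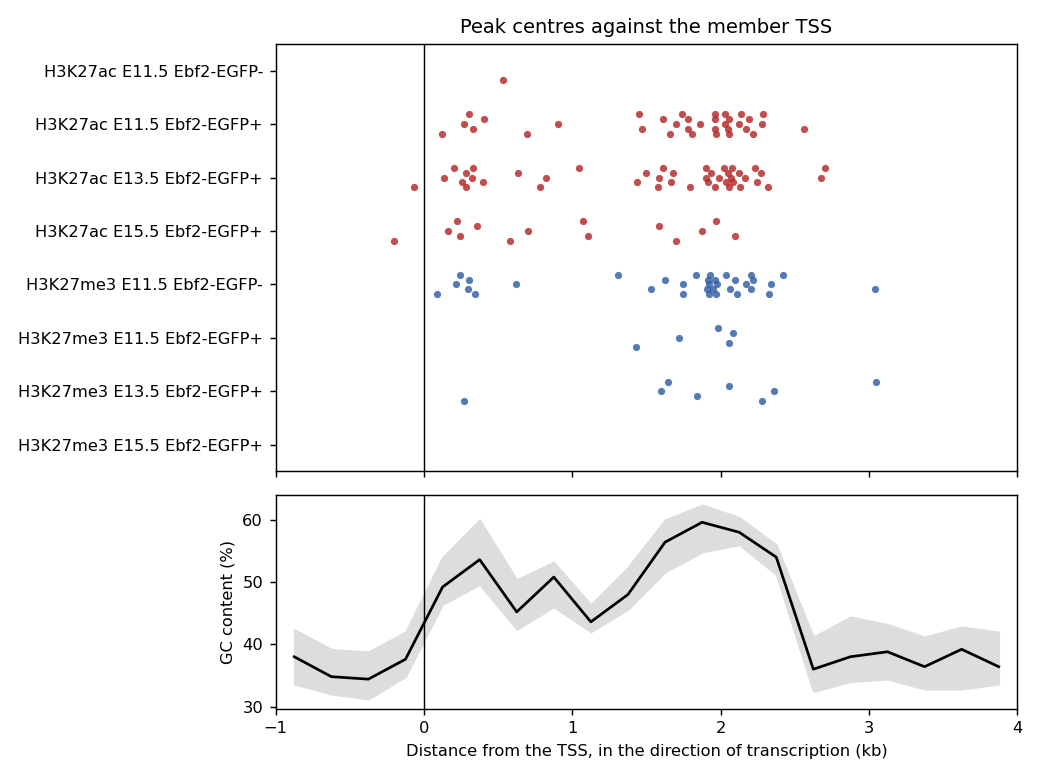
Upper panel, centres of the peaks of each list by distance from the member TSS (kb, in the direction of transcription), with H3K27ac in red and H3K27me3 in blue and a small vertical offset to separate the points. Lower panel, GC content in windows of 250 bp at the same distances, as the median (line) and interquartile range (grey) over the 57 members. Points gather between 1.5 kb and 2.5 kb, where the median GC content reaches 59.6%, and a smaller group lies within the first 500 bp, where it reaches 53.6%.

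The base composition of the members moved with these positions. The median GC content of the members was 34.4% to 38.0% in the windows of the 1 kb before the TSS, 53.6% from 0.25 kb to 0.5 kb after it, 43.6% from 1.0 kb to 1.25 kb, and 59.6% from 1.75 kb to 2.0 kb. It was 36.0% in the window that starts at 2.5 kb after the TSS. The H3K27ac peaks of the cluster, over all lists of the mark, had a mean GC content of 60.2% and the H3K27me3 peaks of 60.3%. The sub-clusters as a whole had 41.6%. Peaks were GC-rich in the whole lists as well, by the median of each list, which is another measure than the mean. These medians were between 51.8% and 59.6% in 7 lists and 70.2% in the list of H3K27ac in Ebf2-EGFP- cells. The part of base composition in the positions of the peaks was not tested.

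Counted by main exon, the members were marked as often as by promoter or more often. These measures overlap, since the exon starts at or near the TSS. Every member with a promoter peak in a list also had a peak in its main exon there, so the order of the counts is no result. In Ebf2-EGFP+ cells H3K27ac lay in the main exon of 29 members at E11.5, 35 members at E13.5 and 12 members at E15.5, and in Ebf2-EGFP- cells in that of 1. These were 50.9%, 61.4%, 21.1% and 1.75% of the members. The background was all 724 protein-coding genes with a coding segment of at least 2 kb in a single exon, the members among them, of which 31.1%, 50.6%, 18.8% and 0.967% had a peak in that exon in the same lists. H3K27me3 lay in the main exon of 30 members (52.6%) in Ebf2-EGFP- cells, against 35.5% of the 724 genes. In Ebf2-EGFP+ cells it lay in 5 (8.77%), 8 (14.0%) and 0 members by stage, against 8.01%, 7.6% and 0.552%. The members' share was higher than the background by 5 percentage points or more in 4 lists and close to it in the other 4.

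**Figure D3:**
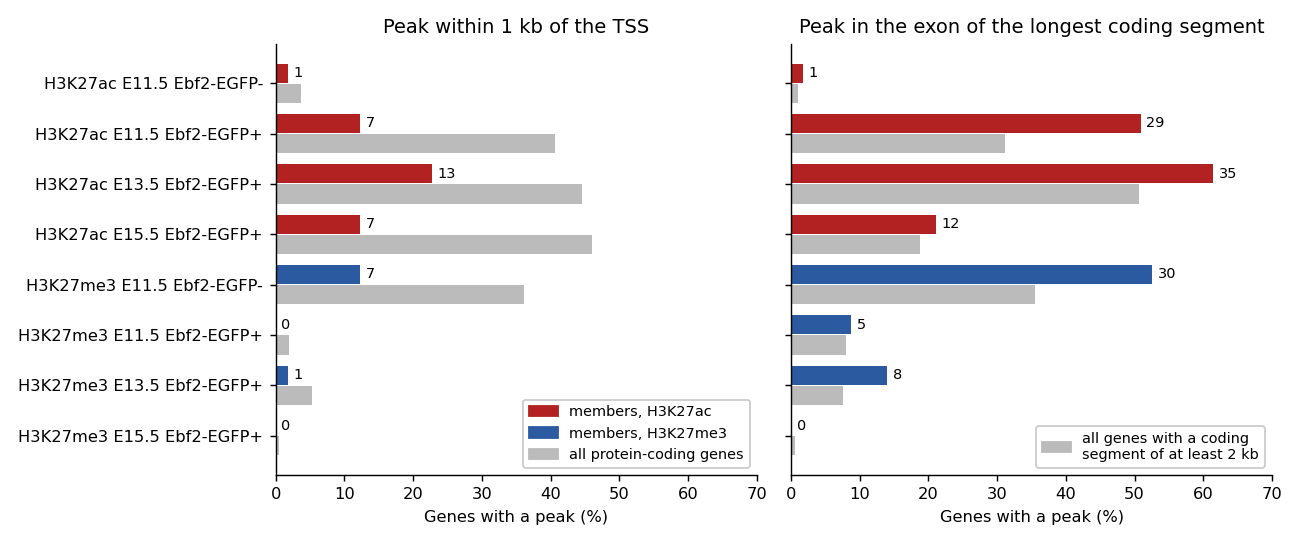
Share of genes with a peak (%), for the 57 members (coloured bars, with the number of members beside them) and for the background (grey bars), in each of the 8 lists. Left, a peak within 1 kb of the TSS, where the members lie below all protein-coding genes in 8 of 8 lists. Right, a peak in the exon of the longest coding segment, where the members lie above all genes with a coding segment of at least 2 kb in 7 of 8 lists.

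The place along the exon also differed from that in other genes. The longest coding segment was cut into 3 equal parts. At E11.5 in Ebf2-EGFP+ cells, 22 of 33 H3K27ac peaks of the members (66.7%) lay in the last part, against 91 of 263 (34.6%) in the other 667 genes with long coding segments. At E13.5 these were 23 of 40 (57.5%) against 180 of 552 (32.6%). For H3K27me3 in Ebf2-EGFP- cells they were 22 of 33 (66.7%) against 109 of 343 (31.8%). At E15.5, H3K27ac had 3 of 12 peaks (25.0%) in the last part, against 37 of 124 (29.8%), and 6 in the first part. The members are related sequences with the same layout, so their agreement in position is not a repeat of independent genes.

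The sub-clusters contributed as follows. At E11.5 in Ebf2-EGFP+ cells, H3K27ac lay in the main exon of 14 beta genes, 9 alpha genes and 6 gamma genes. At E13.5 it lay in 10 beta, 11 alpha and 14 gamma genes, and at E15.5 in 2 beta, 4 alpha and 6 gamma genes. H3K27me3 of Ebf2-EGFP- cells lay in the main exon of 10 beta, 9 alpha and 11 gamma genes. Over all lists, 51 of the 57 members had a peak within 1 kb of the TSS or in the main exon. The 6 members without one were Pcdhb5, Pcdhb10, Pcdhb13, Pcdhga1, Pcdhga6 and Pcdhga8.

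**Figure D4:**
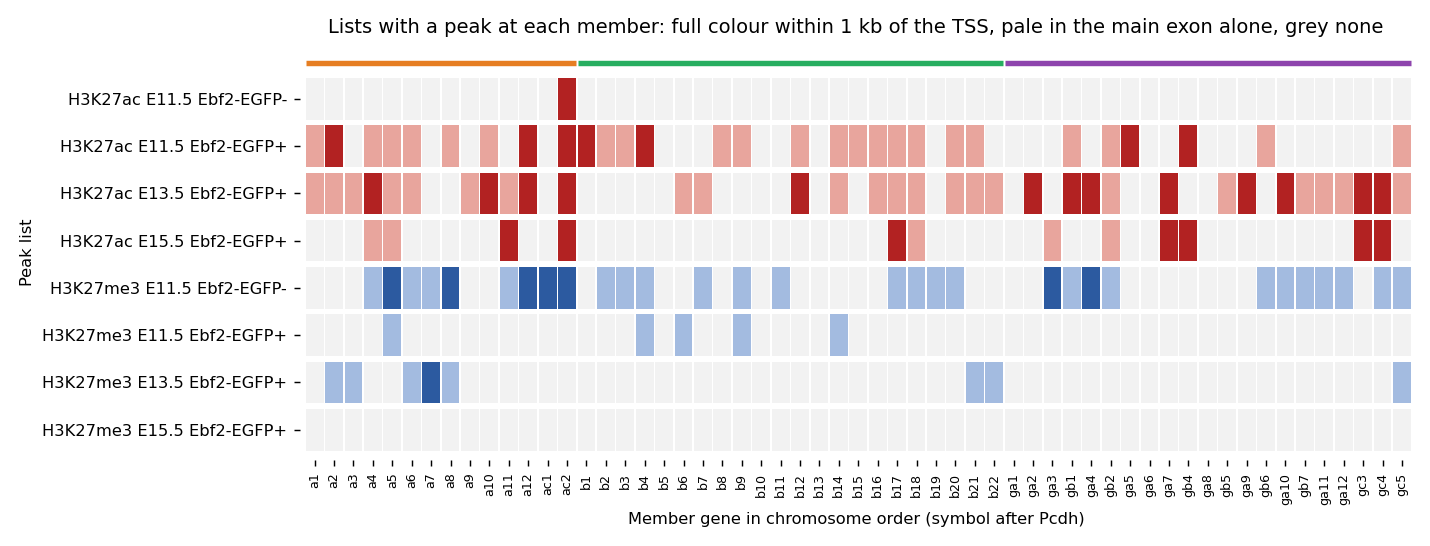
The 57 members in chromosome order (columns) and the 8 lists (rows). Full colour marks a peak within 1 kb of the TSS, pale colour a peak in the main exon alone and grey no peak, with H3K27ac in red, H3K27me3 in blue and the alpha, beta and gamma sub-clusters barred in orange, green and purple. Pcdhac2 is in full colour in 5 lists, and most cells of the beta genes are grey or pale.

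The study read marking in a window of 5 kb around the TSS, which takes in the whole main exon of all members but 6 (Pcdhb14, Pcdhb16, Pcdhb18, Pcdhb19, Pcdhb22 and Pcdhgc5). With that window, H3K27ac of Ebf2-EGFP+ cells marked 38 members at E11.5 (66.7%), 43 members at E13.5 (75.4%) and 15 members at E15.5 (26.3%), and that of Ebf2-EGFP- cells marked 1 (1.75%). The shares of all genes were 49.9%, 60.9%, 52.3% and 4.17%. H3K27me3 marked 31 members (54.4%) in Ebf2-EGFP- cells, against 48.2% of all genes. In Ebf2-EGFP+ cells it marked 5 (8.77%), 11 (19.3%) and 0 members by stage, against 4.92%, 9.31% and 1.06%. So in the 5 lists of E11.5 and E13.5 other than H3K27ac of Ebf2-EGFP- cells, the members lay below all genes with a window of 1 kb and above them with 5 kb, and in the other 3 lists they lay below with both. Since 51 members have another member TSS within 10 kb, the wider windows overlap and a peak can be counted for neighbours.

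The states of the members were read from both marks of a cell group. By main exon or promoter, 29 members carried H3K27me3 only in E11.5 Ebf2-EGFP- cells, 1 carried both marks and 27 carried neither, which was 50.9%, 1.75% and 47.4%, against 49.9%, 7.04% and 42.1% of the 724 genes. In E11.5 Ebf2-EGFP+ cells, 25 carried H3K27ac only, 1 H3K27me3 only, 4 both and 27 neither, with 43.9% against 53.0% for H3K27ac only and 7.02% against 7.04% for both. At E13.5 the counts were 29, 2, 6 and 20, with 50.9% against 58.6% for H3K27ac only and 10.5% for both in members and background alike. At E15.5 they were 12, 0, 0 and 45, and the share with H3K27ac only was 21.1% against 55.5%. The promoter of a background gene can lie far from its long exon, while that of a member lies beside it. The 4 members with both marks at E11.5 were Pcdha5, Pcdhb4, Pcdhb9 and Pcdhb14, and the 6 at E13.5 were Pcdha2, Pcdha3, Pcdha6, Pcdhb21, Pcdhb22 and Pcdhgc5. Pcdhac2 was the member with both marks in Ebf2-EGFP- cells. Both lists of a cell group go with the same inputs, and a pair of marks in a population of cells can come from different cells or alleles.

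Across cell groups, 17 members carried H3K27me3 in the negative and H3K27ac in the positive cells of E11.5, which was 56.7% of the first list's 30 members and 58.6% of the second list's 29, against 75.5% and 71.5% among the 724 genes. They included Pcdha4, Pcdha5, Pcdhac2, Pcdhb18, Pcdhgb2 and Pcdhgc5. H3K27ac at E13.5 was carried by 19 of the 30 (63.3%, against 84.2%). H3K27ac at E15.5 was carried by 9 of the 30 (70.1% in the background), and these 9 were 75.0% of the 12 members with H3K27ac at that stage (71.0% in the background). H3K27ac was at all 3 stages in 6 members by this measure, namely Pcdha4, Pcdha5, Pcdhac2, Pcdhb17, Pcdhb18 and Pcdhgb2, which was 10.5% against 40.7% of the 724 genes. It was at E11.5 alone in 10 members (17.5%, against 3.31%), at E13.5 alone in 13 (22.8%, against 14.1%) and at E15.5 alone in 1, Pcdhga3 (1.75%, against 4.28%).

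Some positions returned between lists, while most sites were in 1 list. Joined where they overlapped, the 158 peaks of the sub-clusters formed 105 sites, of which 71 were in 1 list, 34 in 2 or more and 11 in 3 or more. Peaks were joined in chains, so the peaks of a site need not all overlap each other. Of the 34, 27 lay in the rest of a main exon and 5 within 1 kb of a TSS. Peaks of both marks, in any cell group, were joined in 24 of the 105 sites, and 19 of these lay in the rest of a main exon. In the exon of Pcdha5, a site of 671 bp (chr18:36961740-36962410) joined peaks of all 3 H3K27ac lists of Ebf2-EGFP+ cells and of both H3K27me3 lists of E11.5. Its E15.5 H3K27ac peak (chr18:36962221-36962410) overlapped neither the E11.5 H3K27ac peak (chr18:36961740-36962043) nor the H3K27me3 peak of E11.5 Ebf2-EGFP+ cells. The site at Pcdhac2 (chr18:37143672-37144563), 892 bp long, joined peaks of all 4 H3K27ac lists and of the H3K27me3 list of Ebf2-EGFP- cells. Its E13.5 H3K27ac peak did not overlap the H3K27me3 peak. Sites in the exons of Pcdhb18 and Pcdhgb2 joined peaks of 4 lists each, with H3K27ac of all Ebf2-EGFP+ stages and H3K27me3 of Ebf2-EGFP- cells. At Pcdhb18 the E15.5 peak overlapped only the E13.5 peak.

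Peak by peak, 17 of the 34 H3K27ac peaks at E11.5 in Ebf2-EGFP+ cells (50%) overlapped 17 of the 57 at E13.5 (29.8%). At E15.5, 6 of 14 peaks (42.9%) overlapped a peak of E13.5. Between the marks, 12 of the 34 H3K27ac peaks of E11.5 Ebf2-EGFP+ cells (35.3%) overlapped 12 of the 36 H3K27me3 peaks of Ebf2-EGFP- cells (33.3%). Where both peaks had to be covered to at least 50%, 7, 1 and 3 peaks remained of these 17, 6 and 12. The 5 H3K27me3 peaks of E11.5 Ebf2-EGFP+ cells shared none with the 10 of E13.5. Overlaps over all peaks of the lists were not computed, so these counts are not read as high or low. By promoter or main exon, the 5 members of E11.5 and the 8 of E13.5 had none in common. Among the 724 genes 25.4% and 18.6% were shared, and the members are too few to be read against that.

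The members are near-identical over parts of their exons, so short reads cannot always be placed. Of the words of 32 bases, 17.5% of those in the sub-clusters occurred more than once in the genome, 7.01% of those within 1 kb of a TSS and 10.3% of those in the rest of the main exons. Under the peaks the mean shares in the genome were higher, 35.0% for H3K27ac and 32.4% for H3K27me3. For H3K27ac they were 20.7% within 1 kb of a TSS, 32.7% in the rest of the main exons and 76.2% in the 13 other peaks. Of the 106 H3K27ac peaks, 31 held no repeated word, and of the 52 H3K27me3 peaks 14. The site at Pcdhac2 held 0% repeated words, against 41.2% at Pcdha5, 42.6% at Pcdhb18, 70.2% at the promoter site of Pcdha12 and 80.9% at Pcdhgb2. Which paralog a peak with repeated words in an exon belongs to is uncertain. The part of repeated sequence in the calls was not tested.

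The sequence at the member TSS differed from that of other genes. Within 1 kb of the TSS the median GC content was 42.9% (38.8% to 54.8%) in the members and 51.2% in all protein-coding genes. It was 51.4% in the 5 C-type genes and 42.5% in the other 52 members. The members with H3K27ac within 1 kb had a median GC content of 45.2%, 46.0% and 46.5% at the 3 stages, against 42.5%, 42.4% and 42.6% in those without, so base composition moved with marking here as well, and its part was not tested. The ratio of observed to expected CpG had a median of 0.641 in the alpha, 0.334 in the beta and 0.513 in the gamma promoters, and of 0.474 in all genes. The CTCF core motif, searched on both strands, was matched within 1 kb of the TSS of 6 of 14 alpha genes (42.9%) and of 0 beta and 0 gamma genes. In all, 377 of 21916 protein-coding TSS (1.72%) had a match. A match is a description of the letters, and its absence says only that they are not in this window. Of these 6 members, 1, 2 and 0 had H3K27ac within 1 kb at the 3 stages of Ebf2-EGFP+ cells.

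The gaps between the sub-clusters held peaks at densities below or above those of the genome, by gap and list. An H3K27ac peak of 416 bp lay in the 77.3 kb between the alpha and beta sub-clusters at E11.5 in Ebf2-EGFP+ cells, where E13.5 had 2 peaks, the wider of 198 bp, and E15.5 had 1 of 254 bp. These were 1.29, 2.59 and 1.29 peaks per 100 kb, against 1.36, 3.77 and 0.946 in the genome. This gap is known to hold an enhancer of the alpha genes, and no peak was matched to it here. Between beta and gamma, H3K27ac gave 1, 6 and 3 peaks at the 3 stages. These were 0.728, 4.37 and 2.18 per 100 kb, against the same 1.36, 3.77 and 0.946 in the genome. H3K27me3 gave 3 peaks there in Ebf2-EGFP- cells (2.18 per 100 kb, against 1.8 in the genome). Taf7, which encodes a subunit of the general transcription factor TFIID and lies in that gap, had H3K27ac of 265 bp at its TSS at E15.5 and H3K27me3 of 289 bp in Ebf2-EGFP- cells.

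The genes on either side of the cluster differed. Of the 5 protein-coding genes that follow the gamma sub-cluster, H3K27ac of Ebf2-EGFP+ cells lay within 1 kb of the TSS of 4, 4 and 3 by stage, and H3K27me3 of Ebf2-EGFP- cells lay at 5. They include Hdac3, a histone deacetylase, and Diaph1, an actin nucleator. Of the 5 genes before the alpha sub-cluster, the H3K27ac counts were 1, 3 and 3 and H3K27me3 of Ebf2-EGFP- cells lay at 1, Dnd1. Over all genes the H3K27ac shares were 40.6%, 44.5% and 46.0% and the H3K27me3 share 36.2%, and sets of 5 genes are too small to be read against them.

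Protocadherins outside the cluster, which have no variable exons, gave counts of 3, 3 and 5 of 11 with H3K27ac at the 3 stages, beside the 40.6%, 44.5% and 46.0% of all genes. Pcdh1 was marked in all 4 H3K27ac lists. In Ebf2-EGFP- cells its widest peak measured 160 bp. At E11.5 the positive cells had 538 bp there, at E13.5 392 bp and at E15.5 787 bp. Among 12 genes known to act on the cluster's promoters or chromatin loops, 8, 8 and 11 had H3K27ac at the 3 stages. Ctcf, Smc3, which encodes a cohesin subunit, and Nipbl, the cohesin loader, had it at all of them, as did Smchd1 and Dnmt3b, which act in silencing. Stag1 had no peak within 1 kb of its TSS in any list. Of 9 signalling partners, among them the kinase gene Ptk2 and subunits of the WAVE actin-regulating complex such as Cyfip2 and Nckap1, 8, 6 and 8 had H3K27ac. H3K27me3 in Ebf2-EGFP- cells lay at 9 of the 12 and 5 of the 9. All these shares but the H3K27ac ones of the protocadherins were above those of all genes, and no test was made.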

How the data were processed

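ChIP libraries of H3K27ac and H3K27me3 and their inputs were sequenced from sorted cortex cells. Reads were aligned by the authors to mm10 with Bowtie (version 1.1.2 in the submitters' processing notes), with up to 3 mismatches and a multi-mapping read reported at 1 place, and peaks were called with MACS at p = 1e-05. The MACS version, the use of inputs and the pooling of replicates are not given in the sources used here. The score deposited by the authors was 0 for every peak, so only positions (another kind of value, deposited as start and end) were used, read as counted from 0 and printed from 1.

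Genes were those of GENCODE M21, with the 5′ end as TSS. GENCODE M21 gives the symbol Pcdha11 to 2 genes, and the upstream one is called Pcdha10 here, as in RefSeq. Pcdhgb8, a polymorphic pseudogene there, was no member. A gene was marked by a peak with at least 1 bp in the window. GC content, motif matches and repeated words of 32 bases came from GRCm38.p6. The interval code was checked on made-up intervals. Python 3.11.15, numpy 2.4.6, pandas 2.3.3, numba 0.67.0 and matplotlib 3.10.9 were used. The members and gene lists were chosen with earlier results of these data known. Named genes were the C-type genes, the first and last member of each sub-cluster, the members with peaks in most lists and the widest promoter peak of each list, and others were named after their values were seen. With a single list per group, no test was run.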

Additional observations from a re-analysis of the deposited data

How the results depend on the processing

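The counts depend on the window and on the width of peaks. With peaks of at least 300 bp, the members marked within 1 kb were 0, 0, 2 and 3 for H3K27ac (E11.5 Ebf2-EGFP- cells, then Ebf2-EGFP+ cells by stage), and for H3K27me3 1 in Ebf2-EGFP- cells and 0 at E13.5. Peaks in the sub-clusters then were 0, 10, 10 and 6 for H3K27ac and 8, 0, 0 and 0 for H3K27me3 in the same order. With each list lowered to its widest peaks at the length of the shortest of its mark (1386 for H3K27ac and 1429 nuclear peaks for H3K27me3), the marked members were 0 in all lists that were shortened, H3K27ac peaks in the sub-clusters were 0 in the 3 Ebf2-EGFP+ lists, and H3K27me3 peaks were 1, 1 and 3 in the lists of Ebf2-EGFP- cells and of Ebf2-EGFP+ cells at E11.5 and E13.5. A window of 5 kb gave 38, 43 and 15 members for H3K27ac of Ebf2-EGFP+ cells and 31, 5 and 11 for H3K27me3 in Ebf2-EGFP- cells and in Ebf2-EGFP+ cells at E11.5 and E13.5, and 4 and 11 members with both marks at E11.5 and E13.5. A reciprocal overlap of 50% left 7, 1 and 3 shared peaks for H3K27ac of E11.5 and E13.5, H3K27ac of E13.5 and E15.5, and H3K27me3 of Ebf2-EGFP- against H3K27ac of Ebf2-EGFP+ cells at E11.5. In all, 80 of 142 counts, with those of single members, were within 1.5 times the reported count, and 62 were past it. A stricter threshold on the score could not be run, since all scores are 0. The main exon and the place along the coding segment were measures added after seeing the data. No paired analysis was possible because each group has a single list. The unknown depth and the absence of heights limit every count, and an absent peak does not show an absent mark.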
